A study of Rattus norvegicus with 18 samples.

Results

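The 3p arms of the let-7 microRNAs were followed in rat heart, in 10 entries taken by name from the 599 mature microRNAs (miRNAs) in each library: rno-let-7a-1-3p, rno-let-7b-3p, rno-let-7c-1-3p, rno-let-7c-2-3p, rno-let-7d-3p, rno-let-7e-3p, rno-let-7f-1-3p, rno-let-7f-2-3p, rno-let-7g-3p and rno-let-7i-3p. The species prefix rno is left out below. A further let-7 3p entry, let-7a-2-3p, is not among the 10 and is in none of the let-7 3p sums and counts below. Small RNA was sequenced from 18 heart libraries in 3 groups of 6. The QDG group was spontaneously hypertensive rats (SHR), an inbred strain that develops high blood pressure, given QDG. The SHR group was the same strain given NS, and the WKY group was Wistar Kyoto rats, the strain used as its normotensive reference. The labels spell out neither QDG nor NS, and dose, duration, age and sex are not given in the labels. Nor do they tie each library to its own rat. Should some rats have given several libraries, the p-values would measure only how these libraries scatter, which may be technical in part. SHR and WKY differ in genetic background as well as in blood pressure, and these cannot be told apart here. In whole heart tissue, fewer cells of a type and less RNA per cell cannot be told apart either.

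A let-7 miRNA is cut from a hairpin precursor as a duplex of a 5p and a 3p strand. The 5p strand is the usual guide, which is loaded into an Argonaute protein and represses messenger RNAs that pair with its seed, while most of the 3p, or passenger, strand is degraded. The let-7 guides are abundant in differentiated tissues, the adult heart included, where they restrain growth and cell cycle genes. Several precursors give the same guide, so a guide read cannot be traced to its locus, but their 3p strands can differ and then carry the precursor's number in their name.

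RefSeq (GRCr8) held a mature sequence for 9 of the 10 entries. It held none for let-7c-1-3p, whose difference from the other entries could not be checked here. The 9 are printed 5′ to 3′ because their differences decide which entries can be told apart. The seed (bases 2 to 8) is in capitals, and the let-7a guide is the last line for contrast.
let-7a-1-3p: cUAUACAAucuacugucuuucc
let-7c-2-3p: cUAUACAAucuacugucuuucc
let-7f-1-3p: cUAUACAAucuauugccuucc
let-7b-3p: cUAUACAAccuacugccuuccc
let-7f-2-3p: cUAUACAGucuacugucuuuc
let-7d-3p: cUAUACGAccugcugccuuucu
let-7e-3p: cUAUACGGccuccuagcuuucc
let-7g-3p: cUGUACAGgccacugccuugc
let-7i-3p: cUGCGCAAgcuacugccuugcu
let-7a-5p: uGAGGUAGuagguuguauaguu

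These 9 strands had 6 different seeds. The seed UAUACAA was shared by let-7a-1-3p, let-7b-3p, let-7c-2-3p and let-7f-1-3p, and every other strand had a seed of its own. The 8 let-7 guides, in contrast, all carried the seed GAGGUAG. Compared base by base from the 5′ end, the 36 pairs of 3p strands differed at 0 to 11 positions (median 5), and the 28 pairs of guides at 1 to 6 (median 3).

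let-7a-1-3p and let-7c-2-3p are the same 22 bases, so these entries do not report on single loci. Their recovered read counts were equal in 5 of 18 libraries and differed by at most 6 reads in the others, out of 2515 to 3638. They are therefore a single measurement that 2 entries repeat. The 3p sums below count it once, while medians and counts over the 10 entries hold it as 2. let-7f-2-3p differs from this shared sequence at 1 of 21 positions, A8G, counted from 1 at the 5′ end with the base of let-7a-1-3p first. How reads with mismatches were assigned by the authors is not stated, so an exchange of reads between these entries cannot be told apart from their own levels. The shared sequence averaged 564 RPM and let-7f-2-3p 37.7 RPM, so the same number of exchanged reads would weigh more on let-7f-2-3p.

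The 2 precursors that give the let-7f guide are printed because their 3p strands are set side by side below. Both arms are in capitals, and the loop and flanks in lower case. The let-7f-1 hairpin (RefSeq symbol Mirlet7f-1os) is at chr17:16320501-16320589 and the let-7f-2 hairpin (Mirlet7f2) at chrX:24460045-24460127, both on the plus strand of GRCr8.
let-7f-1 hairpin: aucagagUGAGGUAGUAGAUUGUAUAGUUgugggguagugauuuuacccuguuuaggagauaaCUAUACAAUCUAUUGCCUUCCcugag
let-7f-2 hairpin: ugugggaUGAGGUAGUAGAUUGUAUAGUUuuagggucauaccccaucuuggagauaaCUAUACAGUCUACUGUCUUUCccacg
The 5p arm is identical in the pair. The 3p arms of let-7f-1 and let-7f-2 differ at 4 of 21 positions (A8G, U13C, C16U and C20U, with the base of let-7f-1-3p first).

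In the RefSeq annotation let-7a-1, let-7f-1 and let-7d are neighbours on chromosome 17 within the span of the lncRNA LOC120097935. let-7f-2 lies beside miR-98 on chromosome X within the span of Huwe1, which encodes a ubiquitin ligase. let-7b and let-7c-2 are neighbours on chromosome 7, let-7e lies between miR-99b and miR-125a on chromosome 1 within Spaca6, and let-7c-1 lies beside miR-99a on chromosome 11 within the lncRNA LOC103693508. let-7g lies within the spans of Rpl29 and Wdr82 on chromosome 8, and let-7i within that of LOC134479799 on chromosome 7. Exon and intron positions were not analysed here.

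Read counts summed over all miRNA entries were 6420666 to 10169581 per library, with means of 7726116 in QDG, 7965255 in SHR and 7653999 in WKY. These sums exceed the authors' divisors of 4449279 to 7403775 reads, and entries such as let-7a-1-3p and let-7c-2-3p repeat the same reads, so they are not numbers of distinct reads. Levels are given in RPM, the authors' normalized read counts, in which 1 read was worth 0.135 to 0.225 RPM depending on the library. All 10 entries passed the filter of at least 1 RPM in at least 6 libraries, as did 410 of the 599 miRNAs. Heart muscle markers were present in every group, and no marker of any cell type list was at 0 in all libraries of a group. WKY replicate 1 was the lowest WKY library for 7 of the 10 entries, and QDG replicate 4 the lowest QDG library for 7. The results were also computed without WKY replicate 1 and SHR replicate 5 together, and these values are given where a call changes. SHR replicate 5 does not stand out in these entries, as the lowest SHR library for 0 and the highest for 1 of the 10.

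The 3p strands were a small and unequal part of let-7 RNA. Counting the shared let-7a-1-3p and let-7c-2-3p reads once, they summed to 1094 ± 110 RPM in QDG, 1057 ± 47.2 RPM in SHR and 1258 ± 152 RPM in WKY (SD, n = 6 each). Guides and 3p strands together being let-7 RNA, the 3p share was 1.02 ± 0.0921% in QDG, 1.02 ± 0.0384% in SHR and 1.02 ± 0.121% in WKY, which differ by less than the spread between libraries. The shared let-7a-1-3p and let-7c-2-3p sequence made up 49.7% of the 3p reads over all 18 libraries and let-7d-3p 37.3%, and the other 7 entries shared the rest.

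Over all libraries the entries spanned a 349-fold range of mean level, and the order was uneven. let-7c-2-3p and let-7a-1-3p averaged 564 RPM, ranks 83 and 84 of 599, and let-7d-3p averaged 424 RPM, rank 94. A gap followed, since even the lowest let-7d-3p library was above the highest library of let-7f-2-3p, which averaged 37.7 RPM. let-7b-3p was close to it at 35.9 RPM and let-7f-2-3p was the higher in only 10 of 18 libraries, so these neighbours do not differ beyond their spread. let-7f-1-3p at 27.5 RPM exceeded let-7e-3p at 24.4 RPM in 12 of 18 libraries, and their ranges overlap. let-7i-3p (13.0 RPM), let-7c-1-3p (7.78 RPM) and let-7g-3p (1.62 RPM) then followed in that order in 18 of 18 libraries. Ligation efficiency depends on the ends of a small RNA, so levels of different sequences are compared as read abundance.

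**Figure D1:**
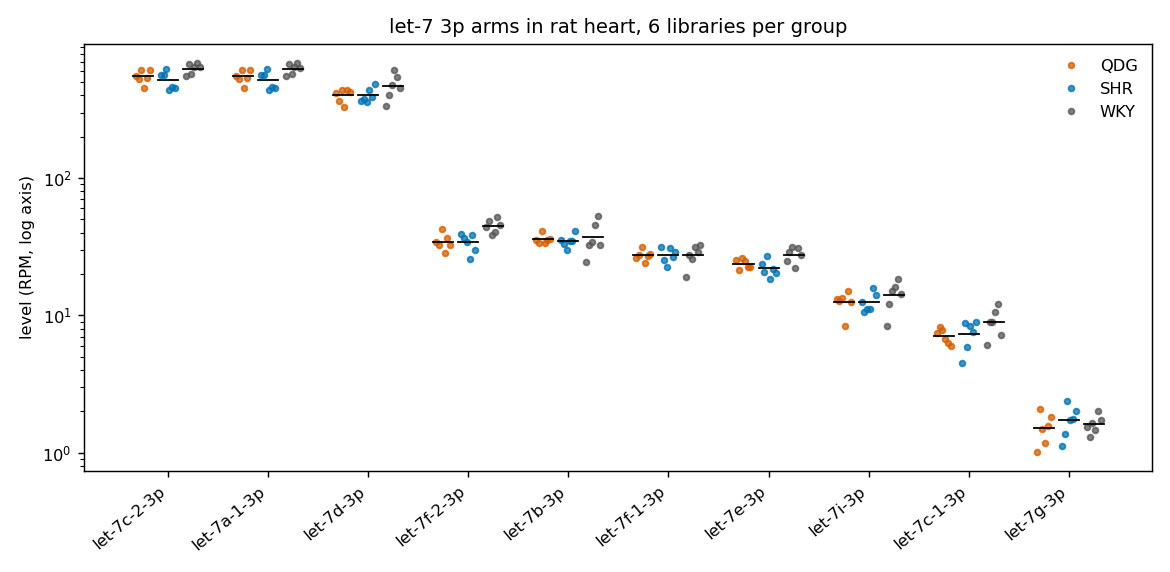
Level of each let-7 3p entry in every library (RPM, log axis), in QDG, SHR and WKY from left to right within each entry, with a point for each of the 6 libraries and a black bar at the group mean. The entries fall into an upper set (let-7c-2-3p, let-7a-1-3p and let-7d-3p, with means from 424 to 564 RPM), a middle set and let-7g-3p near 1.62 RPM, and the groups overlap in every entry.

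The comparison of SHR with WKY asks which of these strands differ in the hypertensive strain. let-7f-2-3p and the shared let-7a-1-3p and let-7c-2-3p sequence were lower in SHR hearts, by 1.32-fold and 1.22-fold, and no entry was higher. let-7f-1-3p, which accompanies the same guide as let-7f-2-3p, was at nearly the same mean in the 2 strains, although the difference between the changes of these entries was not tested. Of the 10 entries 3 were called lower and 0 higher, and 2 of these 3 are the same reads. Among all 410 tested miRNAs 23.2% were called (33 higher and 62 lower), and 15.1% were called lower. The entries had a median log2 fold change of -0.23, beside -0.07 over all tested miRNAs, with 8 of 10 below 0. The shared sequence counts as 2 entries in this median and count. No entry had SHR and WKY libraries without overlap, beside 10.2% of all tested miRNAs. With TMM scaling the calls over all miRNAs were 46 higher and 44 lower.

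let-7f-2-3p ranged from 25.5 to 38.9 RPM (median 35.4) in SHR libraries, against 38.6 to 52.1 RPM (median 44.5) in WKY libraries. The SHR libraries lie below the WKY libraries except at the edge, where the highest SHR libraries pass the lowest WKY library by less than 1 RPM. Its log2 fold change was -0.40 ± 0.12 (SE), with an interval of -0.65 to -0.15 and a limma adjusted p of 0.0179 (Benjamini-Hochberg over all tested miRNAs), and 6 of 6 SHR libraries were below the WKY mean. The call held in 32 of 33 alternatives, all 4 other scalings included, and was lost without SHR replicate 4, the lowest SHR library, where the limma adjusted p was 0.0526.

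let-7a-1-3p ranged from 437 to 625 RPM (median 509) in SHR libraries, against 554 to 684 RPM (median 640) in WKY libraries. The 2 groups overlap, although 6 of 6 SHR libraries were below the WKY mean. The log2 fold change was -0.29 ± 0.10 (SE) for let-7a-1-3p, and the limma adjusted p was 0.0386 for it and for let-7c-2-3p. This call is less stable than that of let-7f-2-3p, because it was lost in 14 of 33 alternatives. Under all 4 other scalings the change was between -0.24 and -0.20, with limma adjusted p from 0.0617 to 0.104. It was also lost without any of SHR replicates 4, 5 and 6 or WKY replicates 2, 4, 5 and 6 (limma adjusted p from 0.0651 to 0.105).

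let-7e-3p, the passenger strand of let-7e in the miR-99b and miR-125a locus, ranged from 18.3 to 27.1 RPM (median 21.1) in SHR libraries, against 22.2 to 31.5 RPM (median 28.1) in WKY libraries. The groups overlap broadly, and its log2 fold change of -0.32 ± 0.12 (SE) missed the threshold with a limma adjusted p of 0.0524. It passed in 12 of 33 alternatives, among them edgeR (adjusted p = 0.0465), DESeq2 (adjusted p = 0.0301) and the fit without WKY replicate 1 and SHR replicate 5 (limma adjusted p = 0.0463). Over all alternatives its adjusted p lay between 0.0221 and 0.123.

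The other entries gave no call. let-7d-3p, the second most abundant sequence of the set, ranged from 357 to 484 RPM (median 384) in SHR libraries, against 336 to 610 RPM (median 466) in WKY libraries. The WKY libraries hold both the lowest and the highest value of the pair, so the SHR range lies wholly within theirs. Its log2 fold change was -0.21 ± 0.12 (SE, limma adjusted p = 0.243), and it passed in 1 of 33 alternatives, without WKY replicate 1, at -0.30 (limma adjusted p = 0.0465). Without WKY replicate 4 it was -0.13 (limma adjusted p = 0.516). let-7c-1-3p had -0.26 ± 0.16 (SE, limma adjusted p = 0.294), and -0.15 without SHR replicate 1 (limma adjusted p = 0.605).

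let-7f-1-3p ranged from 22.6 to 31.2 RPM (median 27.9) in SHR libraries, against 19.1 to 32.3 RPM (median 28.2) in WKY libraries. The SHR range lies within the WKY range, and the log2 fold change was 0.02 ± 0.12 (SE, interval -0.24 to 0.28, limma adjusted p = 0.922). An interval this wide does not show that let-7f-1-3p was equal in the strains. For let-7b-3p the value was -0.06 ± 0.14, for let-7i-3p -0.12 ± 0.16 and for let-7g-3p 0.05 ± 0.16 (SE), with limma adjusted p from 0.638 to 0.866. let-7g-3p had 5 to 15 reads per library, so its level is set largely by counting error.

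**Figure D2:**
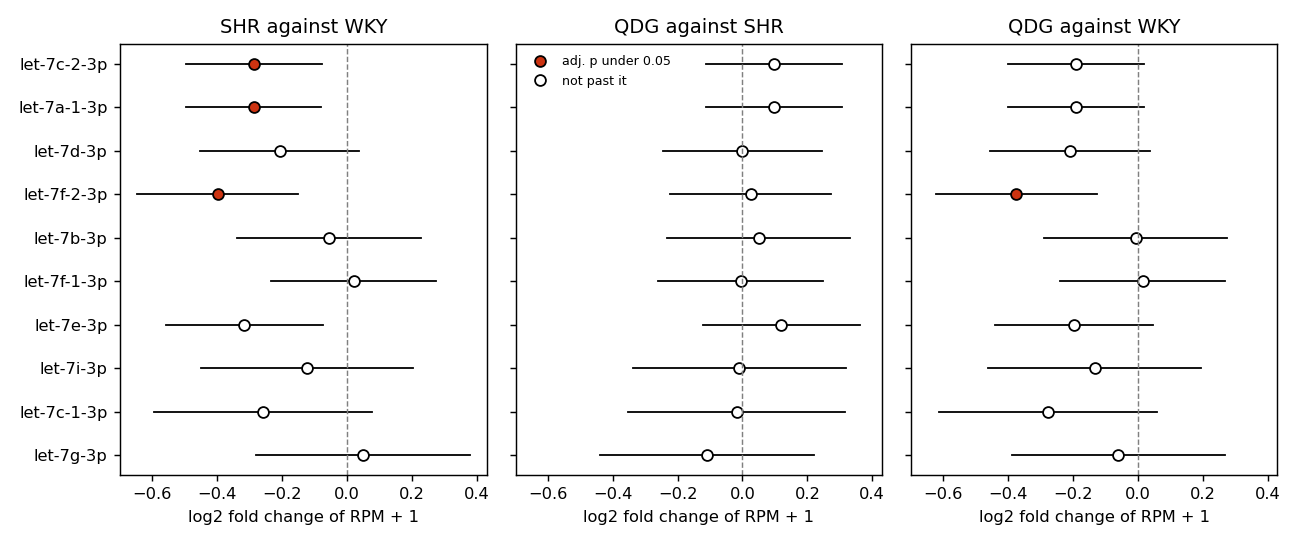
Log2 fold change of RPM + 1 for the 10 entries (points) with its 95% interval (lines) in SHR against WKY, QDG against SHR and QDG against WKY, filled where the limma adjusted p was under 0.05. Filled points lie at -0.40 for let-7f-2-3p and -0.29 for let-7a-1-3p and let-7c-2-3p in SHR against WKY, and at -0.37 for let-7f-2-3p in QDG against WKY, and every interval of QDG against SHR spans 0.

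QDG was compared with SHR to ask whether the treatment moved these strands within the hypertensive strain. No entry differed, with log2 fold changes from -0.11 for let-7g-3p to 0.12 for let-7e-3p and limma adjusted p from 0.983 to 1. By limma 0% of the 410 tested miRNAs were called, 15 had an unadjusted p under 0.05, and none of these was a let-7 3p entry. That threshold passes about 1 in 20 where nothing differs, which is more than 15 of 410. edgeR, DESeq2 and limma-voom on the recovered reads also called 0, with 15, 13 and 15 at an unadjusted p under 0.05. The median was 0.01 over the entries and 0.02 over all tested miRNAs.

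let-7f-2-3p ranged from 28.6 to 42.6 RPM (median 33.2) in QDG libraries, against 25.5 to 38.9 RPM (median 35.4) in SHR libraries. The 2 ranges overlap over most of their length, and its log2 fold change was 0.02 with an interval of -0.22 to 0.27. let-7a-1-3p ranged from 454 to 614 RPM (median 547) in QDG libraries, against 437 to 625 RPM (median 509) in SHR libraries. The QDG range lies within the SHR range, and the log2 fold change was 0.10 with an interval of -0.11 to 0.31. For the other entries the intervals reached at most -0.44 on the low side and 0.36 on the high side, so changes up to that size lie within the intervals. No entry, and 0% of all tested miRNAs, had QDG and SHR libraries without overlap.

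QDG against WKY uses the same WKY libraries as SHR against WKY, so the 2 comparisons are not independent. let-7f-2-3p was again lower, and it was the only entry called, beside 17.8% of all 410 tested miRNAs called (30 higher and 43 lower) and 10.5% called lower. With TMM scaling the calls over all miRNAs were 42 higher and 37 lower. The median log2 fold change was -0.19 over the entries and -0.06 over all tested miRNAs.

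let-7f-2-3p ranged from 28.6 to 42.6 RPM (median 33.2) in QDG libraries, against 38.6 to 52.1 RPM (median 44.5) in WKY libraries. The groups overlap at their edges, and 6 of 6 QDG libraries were below the WKY mean. The log2 fold change was -0.37 ± 0.12 (SE), a 1.30-fold lower level, with a limma adjusted p of 0.0306. The call was lost without any of QDG replicates 1, 2, 4 and 6 or WKY replicates 2, 5 and 6, where the limma adjusted p was 0.0507 to 0.0807.

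let-7a-1-3p was at -0.19 ± 0.10 (SE, limma adjusted p = 0.208) in QDG against WKY, let-7d-3p at -0.21 ± 0.12 (adjusted p = 0.246), let-7e-3p at -0.20 ± 0.12 (adjusted p = 0.266) and let-7c-1-3p at -0.28 ± 0.16 (adjusted p = 0.26). The let-7d-3p value was -0.13 without WKY replicate 4 (limma adjusted p = 0.505). let-7f-1-3p was at 0.01 ± 0.12 (SE, limma adjusted p = 0.948). No entry had QDG and WKY libraries without overlap, beside 8.05% of all tested miRNAs. Whether a strand differed more in SHR than in QDG from WKY is the QDG against SHR comparison, in which none was called.

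Cell type markers were read beside these values. Among all 410 tested miRNAs, 33 were called higher in SHR and 30 in QDG than in WKY, the background for the marker counts here. Of 5 heart muscle miRNAs, 2 were called higher in each of SHR and QDG than in WKY (miR-1-3p and miR-208b-3p) and 0 lower. The median log2 fold change of the 5 was -0.01 in SHR and -0.03 in QDG against WKY, so the 5 did not all rise together. The sum of the 5 was 156310 to 203521 RPM in QDG, 173700 to 199487 RPM in SHR and 137102 to 164347 RPM in WKY. Every SHR library was thus above every WKY library in this sum, while the QDG and WKY ranges overlap. To this sum miR-1-3p alone gave a mean of 114140 RPM in QDG and 117240 RPM in SHR. Of 5 leukocyte miRNAs, 1 was higher in SHR and 2 were higher in QDG than in WKY. The median log2 fold change of the 5 was 0.20 in SHR and 0.09 in QDG against WKY. Their sum had the other order, with medians of 1355 RPM in QDG, 1305 RPM in SHR and 1473 RPM in WKY. The groups overlapped, at 1184 to 1433 RPM in QDG, 1223 to 1407 RPM in SHR and 1094 to 1563 RPM in WKY. Of 5 epithelial miRNAs, 1 was higher in SHR than in WKY, while the median log2 fold change of the 5 was -0.32. No marker of endothelium, smooth muscle, fibroblasts, red blood cells, neurons, skeletal muscle or liver was called in any comparison. The part of these markers in the lower let-7 3p levels was not tested.

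Some let-7 guides were lower as well. Of the 8 guides 5 were lower in SHR than in WKY (let-7a-5p, let-7d-5p, let-7e-5p, let-7f-5p and let-7g-5p) and 4 were lower in QDG than in WKY (the same without let-7g-5p). Among all tested miRNAs 15.1% and 10.5% were called lower in these comparisons. let-7b-5p, let-7c-5p and let-7i-5p did not pass in either comparison, so let-7c-5p, the guide beside let-7c-2-3p, was not called. let-7f-5p averaged 26089 ± 928 RPM in QDG, 24879 ± 956 RPM in SHR and 32086 ± 2110 RPM in WKY (SD, n = 6 each), with log2 fold changes of -0.37 in SHR against WKY (limma adjusted p = 0.000114) and -0.30 in QDG against WKY (limma adjusted p = 0.00129). let-7d-5p fell to 2391 ± 126 RPM in SHR, against 3248 ± 241 RPM in WKY (SD, n = 6 each), a log2 fold change of -0.44 (limma adjusted p = 0.000326), where the value for let-7d-3p was -0.21. Of 13 miRNAs that neighbour let-7 loci, 2 were lower in each of SHR and QDG than in WKY, a share near the 15.1% and 10.5% called lower among all tested miRNAs. They were miR-99a-5p at -0.42 in SHR and -0.28 in QDG (limma adjusted p = 0.000233 and 0.0109), and miR-125b-2-3p at -0.43 and -0.33 (limma adjusted p = 0.00675 and 0.0419). miR-98-5p, from the let-7f-2 locus, had -0.11 in SHR against WKY (limma adjusted p = 0.488), and its partner miR-98-3p had -0.14 (limma adjusted p = 0.529).

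The balance of the arms varied far more between precursors than between groups. The 3p strand was 14.4 ± 1.34% of the let-7d reads in QDG, 14.4 ± 1.74% in SHR and 12.5 ± 1.71% in WKY (SD, n = 6 each), the highest share of the set. let-7a-1-3p was 6.37% of its reads with let-7a-5p in QDG, 6.13% in SHR and 5.64% in WKY, and let-7e-3p 3.76%, 3.69% and 3.44% in the same order. Set against let-7c-5p, the same shared reads, as let-7c-2-3p, were 7.37% in QDG, 7.25% in SHR and 7.74% in WKY, so the order of the groups depends on the guide chosen. let-7b-3p was near 1.09%, let-7f-1-3p, let-7f-2-3p and let-7c-1-3p near 0.10 to 0.14%, let-7i-3p at 0.0480% and let-7g-3p at 0.00501% over all libraries. let-7g and let-7i thus paired some of the most abundant guides with some of the scarcest 3p strands. Where 2 precursors give the same guide (let-7a, let-7c and let-7f), the share is taken against the guide reads of both.

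The ratio of each 3p entry to its guide was tested over 150 arm pairs. Library scaling cancels in such a ratio only for abundant entries, because 1 RPM was added to each arm. No let-7 ratio was called in SHR against WKY, beside 0.667% of all pairs, in QDG against SHR, beside 0%, or in QDG against WKY, beside 0.667%. The single pair called in the comparisons with WKY was miR-490, named after its values were seen. let-7f-1-3p had the lowest p of the set in SHR against WKY. Its share of let-7f reads ranged from 0.0865 to 0.126% (median 0.115%) in SHR libraries, against 0.0538 to 0.107% (median 0.0896%) in WKY libraries, and the groups overlap. The log2 ratio changed by 0.39 ± 0.14 (SE, unadjusted p = 0.0134, limma adjusted p = 0.167), and it passed in 1 of 26 alternatives, with a pseudocount of 5 RPM, at 0.38 (limma adjusted p = 0.0405). In QDG against WKY it was 0.31 ± 0.14 (limma adjusted p = 0.353). Without WKY replicate 1, the lowest WKY library for this ratio, it was 0.26 in SHR against WKY (limma adjusted p = 0.354) and 0.19 in QDG against WKY (limma adjusted p = 0.648). The ratio of let-7f-2-3p to the same guide was at -0.03 ± 0.13 in SHR against WKY (limma adjusted p = 0.911).

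**Figure D3:**
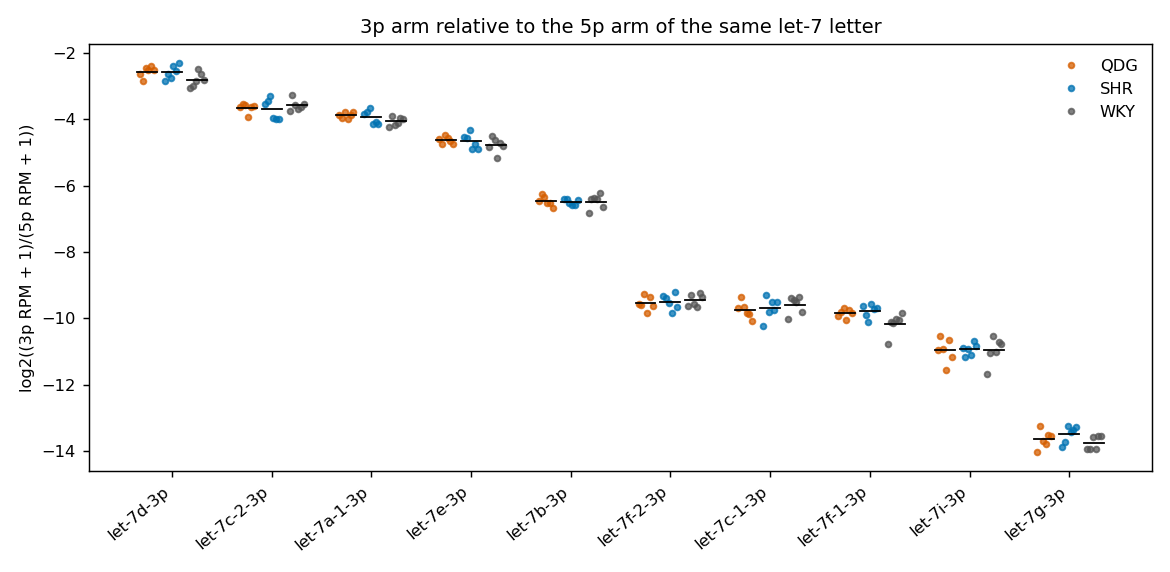
Log2 ratio of each 3p entry to the 5p entry of the same letter (each plus 1 RPM) in every library, in QDG, SHR and WKY from left to right within each entry, with black bars at the group means. let-7d-3p lies nearest to its guide and let-7g-3p farthest from it, and the lowest let-7f-1-3p point is WKY replicate 1 at -10.78.

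Ratios between 3p entries inside a library are given as a description, with no test. Those that hold let-7a-1-3p or let-7c-2-3p do not compare single loci, since that sequence comes from chromosomes 17 and 7. The ratio of let-7f-1-3p to let-7f-2-3p, which sets the chromosome 17 copy against the X copy, averaged 0.803 ± 0.0594 in QDG, 0.839 ± 0.212 in SHR and 0.618 ± 0.121 in WKY (SD, n = 6 each). QDG libraries ranged from 0.736 to 0.870, SHR libraries from 0.665 to 1.20 and WKY libraries from 0.437 to 0.770. The QDG and SHR ranges each overlap the WKY range, and the highest ratio was SHR replicate 4, the library with the least let-7f-2-3p. It was the only library in which let-7f-1-3p exceeded let-7f-2-3p.

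Within the chromosome 17 cluster let-7d-3p was 14.6 ± 1.22 times let-7f-1-3p in QDG, 14.6 ± 1.70 times in SHR and 17.2 ± 2.30 times in WKY (SD, n = 6 each). let-7f-1-3p was 0.0501 of let-7a-1-3p in QDG, 0.0550 in SHR and 0.0436 in WKY. let-7d-3p thus exceeded let-7f-1-3p by more than 10-fold in all 3 groups. The level of the let-7a-1 copy itself is unknown, because its reads are shared with let-7c-2-3p. On chromosome 7, with the same limit, let-7b-3p was 0.0657 of let-7c-2-3p in QDG, 0.0691 in SHR and 0.0588 in WKY. let-7f-2-3p was 0.0627 ± 0.00615 of let-7a-1-3p in QDG, 0.0662 ± 0.0103 in SHR and 0.0715 ± 0.00560 in WKY, a ratio added after the 1-base difference between them was seen. Over the 18 libraries this ratio lay between 0.0526 and 0.0843, and whether misassigned reads take part in it was not tested.

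**Figure D4:**
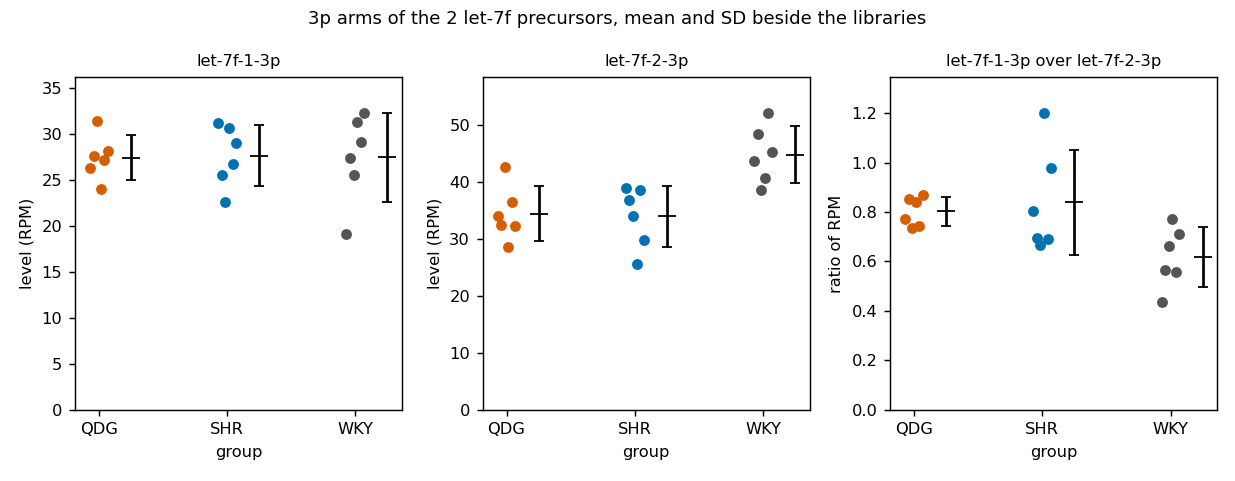
Levels of let-7f-1-3p and let-7f-2-3p (RPM) and their ratio in each library, in QDG, SHR and WKY from left to right, with the mean and SD beside the 6 points. let-7f-2-3p averaged 34.4 RPM in QDG, 33.9 RPM in SHR and 44.8 RPM in WKY, while let-7f-1-3p averaged 27.4, 27.6 and 27.4 RPM in the same order.

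The miRNAs whose profiles over the 18 libraries lay closest to the called entries were found by the mean absolute difference of centred log2(RPM + 1). For let-7a-1-3p they were miR-26b-5p (0.07), miR-30e-5p (0.08) and miR-450a-5p (0.09), where the median over 400 miRNAs was 0.25. For let-7f-2-3p they were miR-30e-5p, miR-455-3p and miR-29b-3p (0.12 to 0.13), where the median was 0.28. These are distances between profiles and carry no test.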

How the data were processed

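Per the labels' protocols, heart RNA was extracted with Trizol and made into libraries with a NEBNext small RNA kit. FastQC, TopHat2 and limma are named, without roles, in the submitters' processing notes. The genome build, the miRNA annotation and the treatment of reads that fit several entries are not stated there. The authors deposited normalized read counts, per the file headers, which are used as a signal for each mature miRNA. They are whole multiples of 1 step per library, on a scale of reads per 1000000 of a divisor (RPM), and 10782 of 10782 values came out within 0.01 of a whole read. limma 3.58.1 (R 4.3.3, trend and robust moderation) was fitted to log2(RPM + 1) of the 410 miRNAs that reached 1 RPM in 6 or more libraries, over all 18 libraries, with Benjamini-Hochberg adjustment at 0.05. Fold changes are on that scale and understate changes of scarce miRNAs. Arm balance was fitted the same way to log2 ratios of 150 arm pairs. edgeR 4.0.16, DESeq2 1.42.0 and limma-voom on the recovered reads, 4 other scalings, other pseudocounts and filters, and each library left out were alternatives, and the fit was tested on simulated data. The text names the 10 entries, the let-7 guides, miRNAs of the same loci and the closest profiles. The members, lists and alternatives were chosen with earlier results of these data known. Sequences are from RefSeq.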

Additional observations from a re-analysis of the deposited data

Results flagged for a closer look

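Single libraries stood apart from their own group in 3 of 78 sets of 6 values (levels, arm ratios and ratios between entries of the let-7 3p strands), by the gap to the nearest library as a share of the group's range. Chance gives about 1 in 20 such sets. let-7b-3p was at 41.3 RPM in QDG replicate 3, and the nearest QDG library was at 35.8 RPM. The log2 ratio of let-7c-2-3p to let-7c-5p was -3.94 in QDG replicate 4, with the nearest QDG library at -3.64. The log2 ratio of let-7f-1-3p to let-7f-5p was -10.78 in WKY replicate 1, with the nearest WKY library at -10.15.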

How the results depend on the processing

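In SHR against WKY the count of let-7 3p entries called, 3 as reported, was 1 with TMM, RLE or upper quartile scaling, with scaling without the 10 most abundant miRNAs, with a filter of at least 1 read in any library and with only the 2 groups compared. The entry called was let-7f-2-3p each time. Leaving out each library gave 0 to 5, with the shared let-7a-1-3p and let-7c-2-3p sequence counted as 2 entries. It was 0 without SHR replicate 4, 1 without SHR replicates 5 or 6 or WKY replicates 2, 5 or 6, and 5 without WKY replicate 1. In QDG against WKY the count, 1 as reported, was 0 to 1 over the libraries left out and 1 in every other alternative. In QDG against SHR it was 0 in all. The count of let-7 arm ratios called in SHR against WKY, 0 as reported, was 1 with a pseudocount of 5 RPM. The cause was not tested. Over all tested miRNAs the count of 95 in SHR against WKY ranged from 66 to 106, and that of 73 in QDG against WKY from 57 to 85. In SHR against WKY 34.7% of the calls were higher as reported, and 44.1 to 51.1% under the 4 other scalings. Depth limits let-7g-3p, at 5 to 15 reads per library, most.

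The labels do not say whether equal replicate numbers pair libraries, and the values do not settle it. Deviations of libraries with the same number correlated at -0.174 to 0.232 (median 0.0392), beside -0.404 to 0.372 (median -0.0219) for other numbers. Of the same-number pairs 7 of 18 were above 0.1, beside 23 of 90 other pairs. Only 2 of 18 libraries correlated best with their own number. The main fits do not pair the libraries. With the replicate block 4 entries were called in SHR against WKY, 0 in QDG against SHR and 1 in QDG against WKY, and 93 and 77 miRNAs in all in the comparisons with WKY.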
